A study of Danio rerio with 6 samples.

Results

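The miRNAs described here are miR-140, miR-199 and miR-214, which are known as mesenchymal miRNAs, in the follicular cells of the zebrafish ovary. They were chosen by name: every row with the zebrafish prefix dre- and exactly the number of miR-140, miR-199 or miR-214, whatever the arm or letter. This rule found 5 of the 289 miRNAs listed: dre-miR-140-3p, dre-miR-140-5p, dre-miR-199-3p, dre-miR-199-5p and dre-miR-214. A further 2 rows, cin-miR-199-3p and xla-miR-214-5p, carry the same numbers with a prefix of another species and are given beside the 5 as related rows. The study sequenced small RNA from follicular cells of early vitellogenic follicles (stage IIIa), whose oocytes cannot yet mature, and of mid to late vitellogenic follicles (stage IIIb), whose oocytes can. There were 3 samples per stage, 6 in all, and each sample was a pool of the cell layers stripped with forceps from follicles of several fish. Neither stage was given a treatment, and the labels state no genotype, strain or age. P-values measure the spread between these pools.

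A teleost oocyte is surrounded by a layer of granulosa cells and, outside it, a theca of stromal cells with blood vessels, and which of these layers came off with the forceps was not measured. In vertebrates miR-140 lies in an intron of Wwp2 and is abundant in cartilage, and in zebrafish it acts on the Pdgf receptor alpha during palate formation. In mouse miR-199 and miR-214 are cut from a shared transcript antisense to the dynamin gene Dnm3 and are found in mesenchymal cells, and in zebrafish miR-214 acts on a Hedgehog pathway inhibitor, suppressor of fused, in muscle precursors. From such a hairpin the 5p and 3p arms are released as a duplex, of which usually a single arm is kept, so the ratio of the arms is a measure that does not depend on how much hairpin was made. The RefSeq gene table of the assembly GRCz12tu, used for names and neighbours only, lists 1 gene for miR-140, 3 for miR-199 and 1 for miR-214. In it mir140 lies within wwp2 on chromosome 25, which encodes a ubiquitin ligase. The 3 miR-199 genes each lie within a dynamin gene: mir199-1a within dnm1a on chromosome 5, where the span of rabepk also covers it, mir199-2a within dnm2a on chromosome 3, and mir199-3a within dnm3a on chromosome 20. The next gene after mir199-3a is mir214a, which also lies within dnm3a. Mature miR-199 reads can therefore come from any of 3 genes, which these values cannot tell apart, and its arm share is taken over all of them.

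The mature sequences are printed because the arms and the related rows are compared throughout. They are the sequences of the deposited tables, 5′ to 3′, with the seed (bases 2 to 8) in capitals.
dre-miR-140-3p: tACCACAGggtagaaccacggac
dre-miR-140-5p: cAGTGGTTttaccctatggtag
dre-miR-199-3p: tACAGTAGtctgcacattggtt
dre-miR-199-5p: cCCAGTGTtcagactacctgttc
dre-miR-214: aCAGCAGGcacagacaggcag
cin-miR-199-3p: aCAGTAGTctgcacattgggtg
xla-miR-214-5p: gCCTGTCTacacttgctgtgc
They were 21 to 23 bases long. The GC content of the 5 zebrafish miRNAs ran from 40.9% in dre-miR-199-3p to 61.9% in dre-miR-214. All 7 seeds differed from each other, and 0 other listed miRNAs shared any of them, so no seed family joins them. Bases 1 to 19 of cin-miR-199-3p were the same as bases 2 to 20 of dre-miR-199-3p. The shift by 1 base gives it another seed, and because the processing allowed 1 mismatch and ragged ends, reads of these 2 rows may have been divided between them.

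The predicted hairpin of xla-miR-214-5p is shown because it identifies this row as the other arm of miR-214. In it capitals mark the mature sequences.
xla-miR-214-5p hairpin: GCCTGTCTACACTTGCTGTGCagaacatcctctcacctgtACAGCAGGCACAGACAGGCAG
It is 61 bases long, with xla-miR-214-5p at bases 1 to 21 and the whole of dre-miR-214 at bases 41 to 61. The row was therefore taken as the 5p arm and dre-miR-214 as the 3p arm of 1 hairpin, although only the latter has a zebrafish name. The hairpin given for cin-miR-199-3p did not contain the dre-miR-199-3p sequence.

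The deposited values are normalized counts, the reads of a miRNA divided by a library size parameter of its sample. Their totals over the 289 miRNAs ran from 1779302 to 3166619. The study retained only miRNAs that reached a minimum count in all replicates of either stage, so a miRNA that is not listed may still have been present. Most low values were whole multiples of a step, which was taken as the worth of 1 read, and by it the samples held about 1129161 (stage IIIa replicate 1) to 9045300 reads (stage IIIb replicate 3). The gonadal miR-202, led by dre-miR-202-5p, took 16.0% to 23.4% of the counts, while of 5 muscle numbers only miR-133 was listed, at 0.00177% to 0.00551%, and the liver miRNA dre-miR-122 reached at most 0.0293%. Red blood cell miRNAs, led by dre-miR-451, took 1.08% to 1.47% of the counts in stage IIIa and 0.0904% to 0.283% in stage IIIb, and each of their 6 rows passed an adjusted p under 0.05 (limma, Benjamini-Hochberg over 289 miRNAs, of which 4.50% passed). The stages did not overlap either for the sum of the leukocyte miRNAs, led by dre-miR-142a-5p. This sum took 0.379% to 0.560% in stage IIIa and 0.222% to 0.329% in stage IIIb. In limma 0 of 6 rows had an adjusted p under 0.05. An unadjusted p of 0.05 or less was found in 1 of 6, beside 14.9% of all 289 miRNAs. On the deposited values the stages did not overlap for dre-miR-142a-3p but overlapped for the other rows of this list. Among all 289 miRNAs 19.7% did not overlap on those values. The corresponding figure for shares of the counts, the scale of the leukocyte sum, is not given here. Stage IIIa replicate 1 stood apart: its mean correlation with the other samples across miRNAs was 0.89, against 0.92 to 0.94 for the others, dre-miR-92a-3p took 14.0% of its counts against 5.08% to 7.54%, and it had the fewest reads. The main results that change with it are given with and without it.

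All 5 miRNAs were present in all 6 samples, at moderate levels. Together they took 0.556% ± 0.0601 (SD, n = 6) of the counts, with 0.610%, 0.560% and 0.535% in replicates 1 to 3 of stage IIIa against 0.575%, 0.448% and 0.607% in those of stage IIIb. Stage IIIa averaged 0.568% ± 0.0383 and stage IIIb 0.543% ± 0.0842 (SD, n = 3 each), and the samples of the stages overlapped. Of this sum miR-140 made up 45.0% on average (range 35.3% to 51.6%), miR-199 41.2% (36.5% to 48.0%) and miR-214 13.8% (9.83% to 16.7%).

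The most abundant of them was dre-miR-140-3p, which ranked 40 of 289 by its mean share. It measured 4896, 4087 and 4615 normalized counts in stage IIIa against 4739, 5792 and 7729 in stage IIIb, always in the order of replicates 1 to 3. Its lowest stage IIIb sample lay inside the stage IIIa range, and stage IIIb replicate 3 was the highest. The opposite arm, dre-miR-140-5p, was scarce by comparison and measured 198.6, 252 and 345 normalized counts in stage IIIa and 304, 386 and 456 in stage IIIb. Stage IIIb replicate 1 lay below stage IIIa replicate 3, so the stages overlapped for this arm as well.

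Next came dre-miR-199-3p, which ranked 48, with 2566, 4904 and 3818 normalized counts in stage IIIa and 3465, 4001 and 7036 in stage IIIb. The low sample was stage IIIa replicate 1 and the high sample was stage IIIb replicate 3. Its partner dre-miR-199-5p ranked 105 and measured 1392, 1006 and 772 normalized counts in stage IIIa and 604, 614 and 1319 in stage IIIb. Here stage IIIa replicate 1 was the highest sample, opposite to its place for the 3p arm, and stage IIIb replicate 3 was close behind it. Between the arms of miR-199 stood dre-miR-214, which ranked 85, with 1801, 2052 and 1440 normalized counts in stage IIIa and 1345, 1176 and 2676 in stage IIIb. Its highest and its lowest sample were both of stage IIIb.

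The related rows were low. The 5p arm of miR-214, listed as xla-miR-214-5p, ranked 157 with 139, 224 and 200.5 normalized counts in stage IIIa and 125, 129 and 326 in stage IIIb, and cin-miR-199-3p ranked 238 with 42.5, 49.1 and 44.3 in stage IIIa and 36.7, 48.6 and 95.4 in stage IIIb. Both were highest in stage IIIb replicate 3, the sample with the largest total. Among the 5, the fewest reads were those of dre-miR-140-5p in stage IIIa replicate 1, where counting alone gives an error of 8.91%, whereas dre-miR-140-3p rested on 3107 reads or more. The row cin-miR-199-3p rested on 27 to 273 reads and is measured least precisely.

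**Figure D1:**
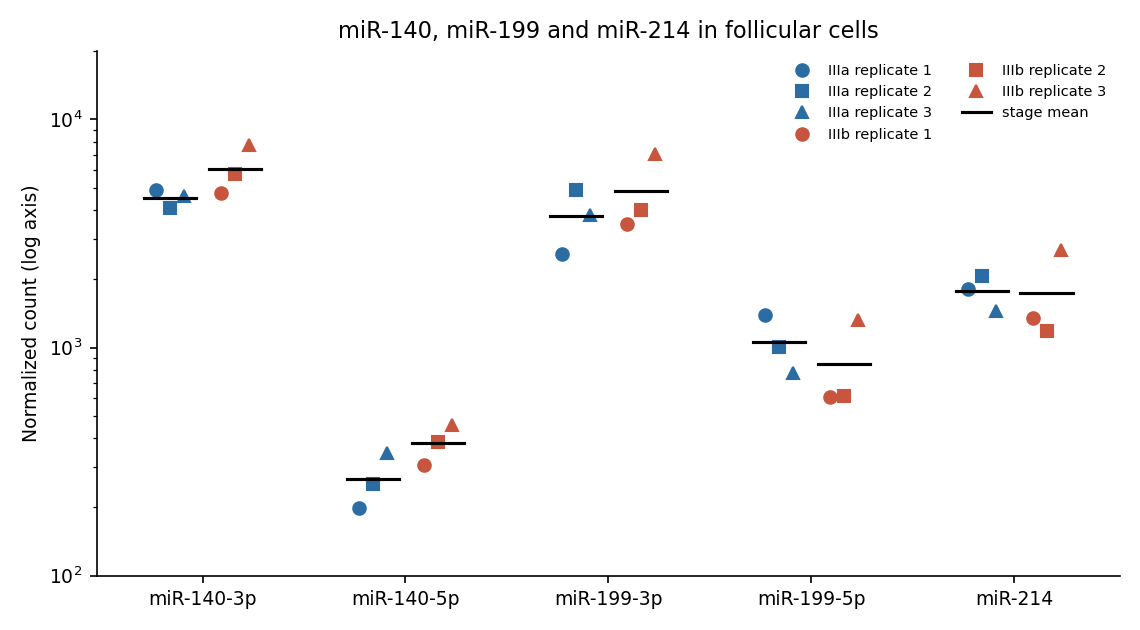
Normalized counts (log axis) of the 5 miRNAs in each of the 6 follicular cell samples, blue for stage IIIa and red for stage IIIb, with the replicate shown by the symbol and the mean of each stage by a black line. For every one of the 5 the stages overlap, and stage IIIb replicate 3 is the highest sample for all but miR-199-5p, where it is second to stage IIIa replicate 1.

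The order of the levels was nearly the same in every sample. The number of reads of a miRNA does not grow with its length, so the normalized counts were not divided by length, but ligation differs between sequences and levels of different miRNAs are compared only roughly. The level of dre-miR-140-3p was above that of dre-miR-199-3p in 5 of 6 samples, with a ratio of 0.833 to 1.91 and the exception of stage IIIa replicate 2, so these neighbours were not separated by more than their spread. By contrast dre-miR-199-3p exceeded dre-miR-214 in 6 of 6 samples (1.42 to 3.40 times), dre-miR-214 exceeded dre-miR-199-5p in 6 of 6 (1.29 to 2.23 times) and dre-miR-199-5p exceeded dre-miR-140-5p in 6 of 6 (1.59 to 7.01 times). As shares of the counts, dre-miR-140-3p varied least over the 6 samples, with a coefficient of variation of 13.7%, followed by dre-miR-140-5p with 17.2%, dre-miR-199-3p with 18.3% and dre-miR-214 with 26.04%. The share of dre-miR-199-5p varied most, with a coefficient of variation of 43.6%, from 0.0230% in stage IIIb replicate 2 to 0.0782% in stage IIIa replicate 1. That place rested on stage IIIa replicate 1, without which its coefficient of variation was 24.2%, just under the 25.6% of dre-miR-214, while those of the other 3 lay between 12.5% and 15.6%.

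For all 3 numbers the 3p arm was the more abundant in every sample. By the mean over the samples the 3p arm was the more abundant in 15 of the 32 zebrafish arm pairs compared, which include miR-140 and miR-199 but not miR-214. A pair here means rows of the same name ending in -3p and -5p, both detected in every sample. For miR-140 the 3p arm made up 96.1%, 94.2% and 93.1% of the counts of both arms in stage IIIa and 94.0%, 93.8% and 94.4% in stage IIIb. The means were 94.4% ± 1.54 (SD, n = 3) and 94.0% ± 0.345 (SD, n = 3), with no detectable difference (exact two-sided permutation test, p = 0.80, where 3 samples against 3 cannot give less than 0.10). For miR-214, with xla-miR-214-5p as the 5p arm, the share was 92.9%, 90.2% and 87.8% in stage IIIa and 91.5%, 90.1% and 89.1% in stage IIIb, again without a detectable difference (90.3% ± 2.54 against 90.2% ± 1.19, SD, n = 3 each, exact permutation p = 0.90). The differences of these 2 hairpins were small enough that leaving out stage IIIa replicate 1 turned their sign, to 0.428 percentage points higher in stage IIIb for miR-140 and 1.26 for miR-214 (exact permutation p = 0.60 for each).

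The arms of miR-199, whose reads can come from 3 genes, were the least one-sided of the 3 numbers and, over all 6 samples, the most variable. The 3p arm made up 64.8%, 83.0% and 83.2% of the counts of both arms in stage IIIa and 85.2%, 86.7% and 84.2% in stage IIIb. The samples of the stages did not overlap, with means of 77.0% ± 10.5 (SD, n = 3) and 85.4% ± 1.25 (SD, n = 3) and a difference of 8.36 percentage points at the smallest p the design allows (exact two-sided permutation test, p = 0.10). The stages did not overlap in 21.9% of the 32 zebrafish arm pairs, 7 in all. Most of the difference came from stage IIIa replicate 1: without it the stage IIIa mean was 83.1% and the difference 2.28 percentage points (exact permutation p = 0.20). The stages still did not overlap then, and 2 samples against 3 cannot give a smaller p. The share of the 32 pairs that did not overlap without this sample is not given here. Adding cin-miR-199-3p to the 3p arm left the difference at 8.28 percentage points.

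In stage IIIa replicate 1, with about 1628 reads of the 3p arm and 884 of the 5p arm of miR-199, the 95% Wilson interval of the share was 62.9% to 66.7%, whereas the intervals of the other 5 samples lay between 82.3% and 87.6%. The intervals cover counting error on recovered reads only and not the spread between pools, and reads without molecular identifiers are not independent molecules. In this sample dre-miR-199-3p was 1.84 times dre-miR-199-5p, against 4.88 to 6.51 times in the others. The same sample was the lowest or the highest of the 6 in 24 of the 32 zebrafish arm pairs (lowest 3p to 5p ratio in 14, highest in 10), where each other sample was so in 6 to 12 pairs. It was the highest for miR-140 and miR-214 and the lowest for miR-199. The spread of the log2 arm ratio of miR-199 over the 6 samples, an SD of 0.66, ranked 4 among the 32 pairs (median 0.50), and without this sample it was 0.17 and ranked 26 (median 0.30). The arm ratio of miR-140 was among the steadier in both cases, with an SD of 0.30 over 6 samples (rank 25) and 0.13 without this sample (rank 29). Whether the low read number or the high share of dre-miR-92a-3p in stage IIIa replicate 1 has a part in this was not tested.

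**Figure D2:**
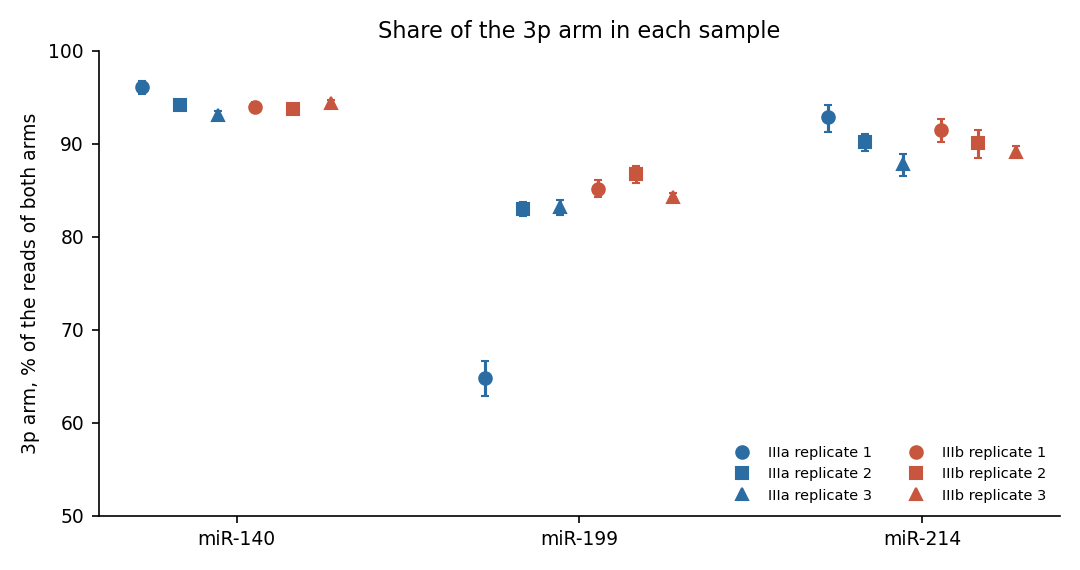
Share of the 3p arm in the reads of both arms, in percent on an axis from 50 to 100, for miR-140, miR-199 and miR-214 in each sample, with 95% Wilson intervals for counting error. Stage IIIa replicate 1 (blue circle) lies at 64.8% for miR-199, far below the other 5 samples, while it is the highest sample for miR-140 and miR-214.

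The comparison of the stages asks whether the level of these miRNAs changes as follicles acquire the ability to mature. For none of the 5 was a difference between stage IIIa and stage IIIb detected in limma on log2(normalized count + 1), a scale that slightly understates the change of low miRNAs. Among all 289 miRNAs 4.50% had an adjusted p under 0.05 (13) and 14.9% an unadjusted p of 0.05 or less (43), and for 19.7% the samples of the stages did not overlap (57). The corresponding counts among the 5 were 0, 0 and 0. The 289 had passed the minimum count of the study, which a miRNA could reach through a single stage. Numerically 3 were higher and 2 lower in stage IIIb, with a median log2 fold change of 0.34, beside a median of 0.15 with 167 of 289 higher over the whole table.

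Both arms of miR-140 were on the higher side in stage IIIb. The means of dre-miR-140-3p were 4533 ± 410.6 and 6086 ± 1516 normalized counts (SD, n = 3 each), a difference of 0.40 on the log2 scale (SE 0.32, adjusted p = 0.590 in limma), which is 1.32-fold with a 95% confidence interval of 0.814 to 2.14. For dre-miR-140-5p the means were 265 ± 73.8 and 382 ± 76.0, a difference of 0.54 on the log2 scale (SE 0.37, adjusted p = 0.527 in limma), or 1.46-fold with an interval of 0.828 to 2.56. The intervals leave room for no change and for a rise beyond 2-fold alike. Without stage IIIa replicate 1 the log2 fold changes were 0.46 and 0.35 (limma adjusted p = 0.732 and 0.849), and without stage IIIb replicate 3 they were 0.21 and 0.41.

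The arms of miR-199 pointed in opposite directions, neither past the spread of the samples. For dre-miR-199-3p the means were 3763 ± 1170.2 and 4834 ± 1925 normalized counts (SD, n = 3 each), 1.27-fold with an interval of 0.709 to 2.26 (log2 fold change 0.34, limma adjusted p = 0.685). For dre-miR-199-5p they were 1057 ± 313 and 846 ± 409.6, 0.768-fold with an interval of 0.414 to 1.42 (log2 fold change −0.38, limma adjusted p = 0.685). Without stage IIIa replicate 1 the log2 fold changes shrank to 0.09 and −0.16, so their opposition, too, rested mainly on that sample. Without stage IIIb replicate 3 they were 0.03 and −0.75 (limma adjusted p = 0.982 and 0.383). For dre-miR-214 the means were almost equal, 1764 ± 308 and 1732 ± 821 normalized counts, 0.927-fold with an interval of 0.518 to 1.66 (log2 fold change −0.11, limma adjusted p = 0.922). Its sign turned when stage IIIa replicate 2 or stage IIIb replicate 1 or 2 was left out, to log2 fold changes of 0.01, 0.02 and 0.12. The related rows gave log2 fold changes of 0.29 for cin-miR-199-3p (limma adjusted p = 0.849) and −0.08 for xla-miR-214-5p (limma adjusted p = 0.945).

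The sizes depended on how the samples were scaled, because the deposited totals were larger in 2 of the 3 stage IIIb samples than in any stage IIIa sample. The median log2 fold change of all 289 miRNAs was 0.15 on the deposited values, −0.02 after scaling by the median ratio to the geometric mean sample and −0.16 after scaling to equal totals. Relative to that median, the log2 fold changes were 0.25 for dre-miR-140-3p, 0.39 for dre-miR-140-5p, 0.19 for dre-miR-199-3p, −0.53 for dre-miR-199-5p and −0.26 for dre-miR-214, and these moved by less than 0.01 between the 3 scalings. This follows by construction, since a scaling multiplies all miRNAs of a sample by the same factor and only the pseudocount lets them differ. At equal totals the log2 fold changes themselves were 0.09, 0.23, 0.03, −0.69 and −0.42 in the same order, and the smallest adjusted p among them was 0.275 (limma, dre-miR-199-5p). Over all 16 settings of the fit, the main one included, the lowest adjusted p was 0.302 for dre-miR-140-3p, 0.252 for dre-miR-140-5p, 0.458 for dre-miR-199-3p, 0.275 for dre-miR-199-5p and 0.425 for dre-miR-214. In a mixture of cell layers, fewer cells of a type and less of its RNA per cell cannot be told apart in any of these values.

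**Figure D3:**
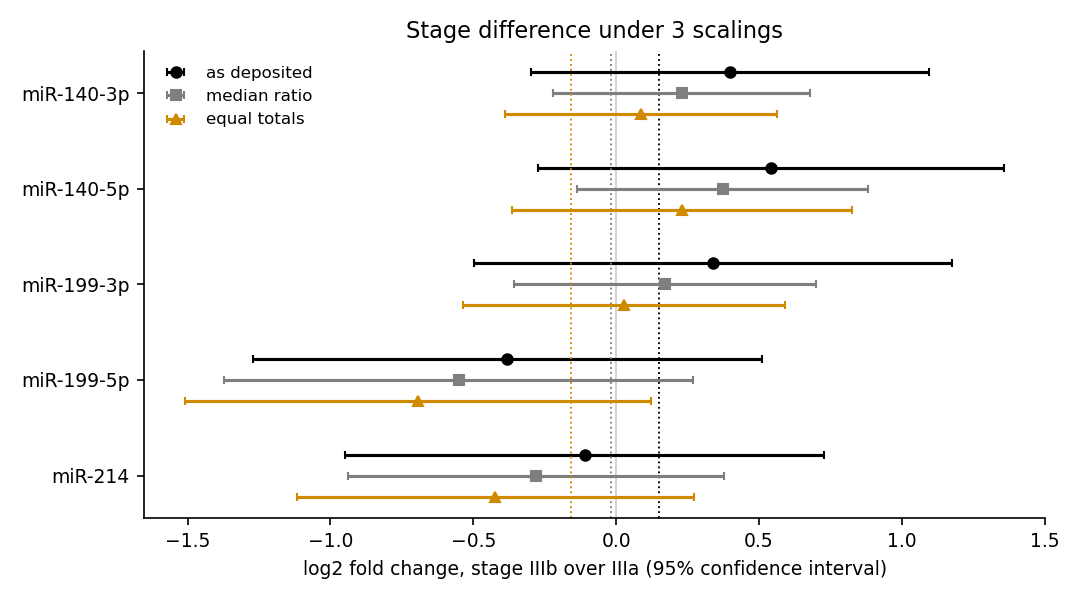
Log2 fold change of stage IIIb over stage IIIa (x axis, points with 95% confidence intervals from limma) for the 5 miRNAs under 3 scalings of the samples, with the median of all 289 miRNAs under each scaling as a dotted line in its colour. Every interval includes 0. The points shift together with the median by construction, since a scaling multiplies all miRNAs of a sample by the same factor.

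Across the 6 samples the members did not vary as a single block, and how closely the members of miR-199 and miR-214 moved together depended on stage IIIa replicate 1. On log2 values scaled to equal totals, Pearson's r was positive in 6 of the 10 pairs and negative in 4, with a median of 0.15, and 0 of 10 passed an adjusted p under 0.05 (exact two-sided permutation test over 720 pairings, Benjamini-Hochberg over the 10 pairs). A single pair had an unadjusted p under 0.05, dre-miR-199-5p with dre-miR-214, at r = 0.90 (n = 6, exact permutation p = 0.0208, adjusted p = 0.208) and Spearman's rho = 0.94 (exact permutation p = 0.0167, adjusted p = 0.167). Both were highest in stage IIIa replicate 1 and lowest in stage IIIb replicate 2. Leaving out these 2 samples, the farthest from the median, gave r = 0.86, removing the stage means gave 0.85, and the deposited values without scaling gave 0.86. On the deposited values 9 of the 10 pairs were positive, with a median r of 0.48 and 0 of 10 past the adjusted threshold, and these values share the factor of the sample totals. The 2 arms of miR-140 had r = 0.15 (n = 6, exact permutation p = 0.753, adjusted p = 0.855; rho = −0.14, exact permutation p = 0.803, adjusted p = 1.0) and those of miR-199 r = −0.06 (exact permutation p = 0.922, adjusted p = 0.922; rho = 0.09, exact permutation p = 0.919, adjusted p = 1.0). Without the 2 farthest samples, which include stage IIIa replicate 1 in both cases, these were 0.34 and 0.85. Without stage IIIa replicate 1 alone, over 5 samples and with no test, r was 0.82 for the arms of miR-140 and 0.96 for those of miR-199. The r of dre-miR-199-3p with dre-miR-214 was 0.36 over 6 samples and 0.98 without that sample, and that of dre-miR-199-5p with dre-miR-214 was 0.97 without it. The 6 pairs of a miR-140 arm with a miR-199 or miR-214 member then had r between −0.40 and −0.09. With stage IIIa replicate 2 left out as well, the 2 farthest samples for these pairs, the same 6 had r between 0.10 and 0.73. Their sign thus depended on the samples kept.

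**Figure D4:**
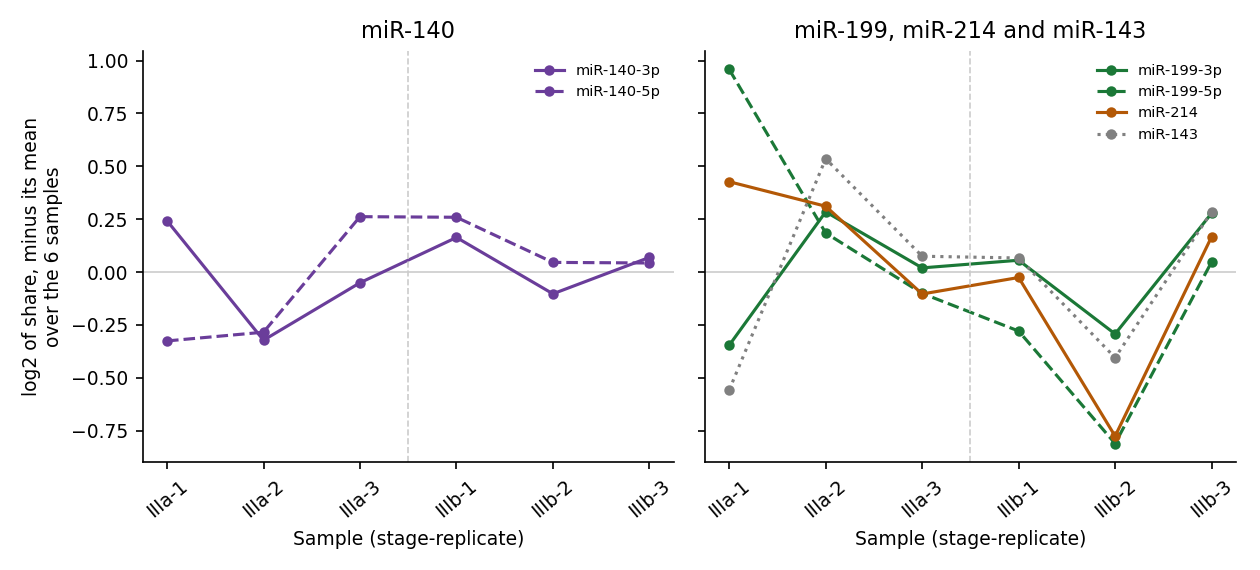
Share of each miRNA in the counts of a sample on the log2 scale, minus its mean over the 6 samples, for the arms of miR-140 (left) and for miR-199, miR-214 and miR-143 (right), with the stages divided by a dashed line. Lines only join the points of 1 miRNA. In stage IIIa replicate 1 miR-199-3p and miR-143 are low where miR-199-5p and miR-214 are high, and in the other 5 samples these 4 keep nearly the same order, with stage IIIb replicate 2 lowest for each.

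The ratio between 2 miRNAs of the same sample is free of its scaling, and without stage IIIa replicate 1 it was steadier for pairs within miR-140 or within miR-199 and miR-214 than for pairs across them. The ratio of dre-miR-199-5p to dre-miR-214 was 0.773 in stage IIIa replicate 1 and 0.449 to 0.536 in the other 5 samples, an SD of the log2 ratio of 0.27 over 6 samples and 0.099 over 5. The other pairs within miR-140 or within the miR-199 and miR-214 group had SDs over 5 samples of 0.13 (arms of miR-140), 0.17 (arms of miR-199) and 0.19 (dre-miR-199-3p to dre-miR-214). The 6 pairs of a miR-140 arm with a miR-199 or miR-214 member had SDs of 0.31 to 0.54. Over all 6 samples this order did not hold: the SDs were 0.27 to 0.66 for the 4 pairs within these groups and 0.34 to 0.78 for the 6 pairs across, with the arms of miR-199 at 0.66. The grouping was seen after the values and carries no test.

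**Figure D5:**
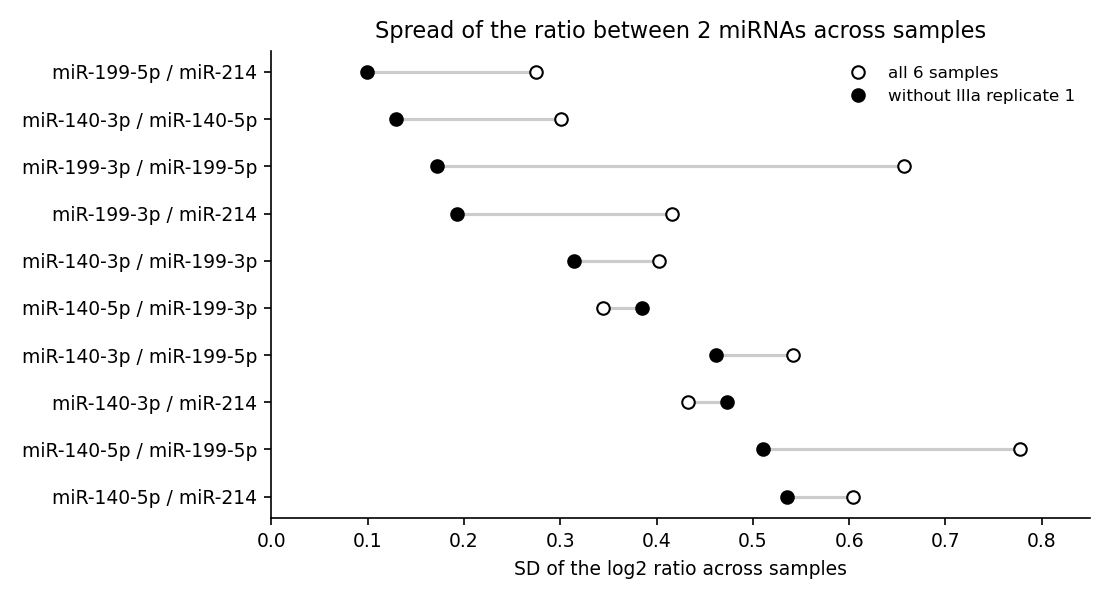
SD across samples of the log2 ratio between 2 of the 5 miRNAs, for the 10 pairs, over all 6 samples (open circles) and without stage IIIa replicate 1 (filled circles). Without that sample the 4 pairs within miR-140 or within miR-199 and miR-214 have SDs of 0.099 to 0.19 and the 6 pairs across them 0.31 to 0.54.

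For each member the 3 other miRNAs with the most similar profile were listed, by Pearson's r of log2 values at equal totals over the 6 samples, among the 282 miRNAs with other numbers. With so many candidates and 6 samples a high r is a description and carries no test. The nearest to dre-miR-199-3p was dre-miR-143 (r = 0.98), among the most abundant of the table. It is known from contractile smooth muscle and mural cells, while the study cites mammalian work on it in granulosa cells. Which cells it came from here was not measured. It took 9.70%, 20.7% and 15.0% of the counts in stage IIIa and 15.0%, 10.8% and 17.4% in stage IIIb, where dre-miR-199-3p took 0.144%, 0.223% and 0.186% and 0.191%, 0.150% and 0.222%. Both were lowest in stage IIIa replicate 1 and highest in stage IIIa replicate 2. Their ratio ran only from 67.3 to 92.7 over the 6 samples, with an SD of the log2 ratio of 0.16, and 0.13 without stage IIIa replicate 1. The next nearest were dre-miR-100-2-3p and dre-miR-100-3p (r = 0.91 for each).

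Over the 6 samples the other arm of miR-199 had other neighbours, although the arms themselves had r = 0.96 without stage IIIa replicate 1: dre-miR-454b (r = 0.97), xla-miR-143-5p (r = 0.96) and dre-miR-181c-5p (r = 0.95) were nearest to dre-miR-199-5p. The second of these is named as the opposite arm of miR-143. It took 0.0363%, 0.0203% and 0.0223% of the counts in stage IIIa and 0.0137%, 0.0106% and 0.0194% in stage IIIb, highest in stage IIIa replicate 1, where dre-miR-143 was lowest. In that sample, therefore, dre-miR-199-3p and dre-miR-143 were both at their lowest share while dre-miR-199-5p and xla-miR-143-5p were both at their highest. For dre-miR-214 the nearest were dre-miR-21 (r = 0.92), dre-miR-146a (r = 0.89) and dre-miR-181c-5p (r = 0.86). The 5p arm of miR-214, xla-miR-214-5p, had r = 0.75 with dre-miR-214 (0.89 without stage IIIa replicate 1) and was nearest to dre-miR-222b (r = 0.95), PC-3p-11648_488 (r = 0.93) and dre-miR-146a (r = 0.92). Of these PC-3p-11648_488 took at most 0.00377% of the counts and was 0 in stage IIIb replicate 2. Its r on the deposited values was 0.68. For cin-miR-199-3p the highest was PC-5p-15213_380 (r = 0.90), followed by dre-miR-125c-5p (r = 0.87) and dre-miR-30c-3p (r = 0.85), and its r with dre-miR-199-3p was 0.49, or 0.78 without stage IIIa replicate 1.

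The arms of miR-140 shared no neighbour with each other or with miR-199 and miR-214 among these 3. Nearest to dre-miR-140-3p were dre-miR-735-5p (r = 0.97), ccr-mir-738-p5 (r = 0.92) and dre-miR-125a (r = 0.79), and only 2 of the 282 had an r over 0.8 with it. Their order depended on the scaling: on the deposited values these r were 0.57, 0.16 and 0.96. Nearest to dre-miR-140-5p were dre-miR-7148-5p (r = 0.99), dre-miR-725-3p (r = 0.97) and dre-miR-210-3p (r = 0.96). Of these dre-miR-210-3p, known for its rise under low oxygen, took 0.0731% to 0.139% of the counts, whereas dre-miR-7148-5p took at most 0.00157%.

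Whether the members mark stroma or theca could not be read from these samples, which were not sorted by layer. The markers of other cell types are given as summed shares. The r of these sums was taken with dre-miR-199-3p only and does not describe the other members. The contractile miRNAs miR-143 and miR-145, in 4 rows led by dre-miR-143, took 10.1%, 21.3% and 15.4% of the counts in stage IIIa and 15.3%, 11.1% and 17.7% in stage IIIb, with 0 of 4 rows past the adjusted threshold between the stages. Their sum had r = 0.98 with dre-miR-199-3p over the 6 samples, a sum that consists almost wholly of dre-miR-143 and does not describe the other rows. As dre-miR-143 is also known from granulosa cells, the name of this list does not settle which cells it came from. On the deposited values dre-miR-143 had a log2 fold change of 0.28. The other rows pointed the other way, with −0.28 for dre-miR-145-3p, −0.14 for dre-miR-145-5p and −0.53 for xla-miR-143-5p. The endothelial and epithelial sums described next had r = 0.92 and 0.74 with dre-miR-199-3p, so a high r was not particular to the contractile miRNAs. The gonadal miR-202 had r = −0.70, and the sums of red blood cell, leukocyte, muscle and miR-455 rows lay between −0.32 and 0.37. The endothelial miR-126, in 2 rows led by dre-miR-126b-5p, took 1.40% to 2.19% in stage IIIa and 1.57% to 1.84% in stage IIIb (0 of 2 rows past the adjusted threshold). Epithelial miRNAs, 8 rows led by dre-miR-141-3p, took 0.126% to 0.170% and 0.137% to 0.234%, with 0 of 8 rows past the adjusted threshold. An unadjusted p of 0.05 or less in limma was found in 1 of 8, dre-miR-200c-3p, beside 14.9% of all 289 miRNAs. The cartilage miRNA miR-455, known beside miR-140 in chondrocytes, was listed in 3 rows led by dre-miR-455-5p and took 0.201% to 0.273% in stage IIIa and 0.155% to 0.195% in stage IIIb. The stages did not overlap for this sum and it lay lower in stage IIIb, unlike the miR-140 arms, although 0 of its 3 rows passed the adjusted threshold. On the deposited values the stages overlapped for each of these 3 rows, and their directions were mixed. The log2 fold changes were −0.15 for dre-miR-455-5p, −0.19 for dre-miR-455-3p and 0.27 for dre-miR-455-2-5p, so the lower sum followed its most abundant row. How many of all miRNAs do not overlap as shares of the counts is not given here. At equal totals the median log2 fold change of all 289 miRNAs was itself −0.16. The part of these cell types in the levels of the 5 members was not tested.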

How the data were processed

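With the ACGT101-miR program the authors kept unique sequences of miRNA length, aligned them to zebrafish and then to other precursors of miRBase 22.0 with up to 1 mismatch, and divided the counts by a library size parameter. The deposited signal of a miRNA is this normalized count, 1 for each of 289 miRNAs in each of 6 samples, and the genome build in the labels is GRCz11. The study had retained only miRNAs that reached a minimum count in all replicates of stage IIIa or of stage IIIb. Raw counts were not used here. Among values under 400, 82.8% to 85.9% were whole multiples of a step at a tolerance of 0.01, so recovered reads serve only to describe precision.

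Stages were compared on log2(normalized count + 1) in limma 3.58.1 (R 4.3.3), with a mean-variance trend, no further filter, all 6 samples and Benjamini-Hochberg adjustment over 289 miRNAs. Single shares were compared with exact two-sided permutation tests (20 assignments), correlations over 720 pairings with scipy 1.17.1. The fit was tested on simulated data. The simulated noise was independent for each miRNA and sample, so an outlying sample was not covered. Alternatives were pseudocounts of 0.1 and 10, a filter at a mean of 100, 2 scalings, no trend, robust fitting, the replicate number as a block, untransformed values, other denominators and each sample left out. The log2 arm ratio was added after the values were seen. Named are all members, rows with the same number or seed, the 3 most similar miRNAs of each and the most abundant row of each cell type list. Outside this rule dre-miR-92a-3p and further rows of the leukocyte, contractile, epithelial and cartilage lists are also named. The members and lists were chosen with earlier results of these data known. The real-time PCR and target predictions were not analysed here.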

Additional observations from a re-analysis of the deposited data

How the results depend on the processing

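The stage difference of the 5 miRNAs stayed short of the adjusted threshold under all 15 alternatives. Of the 75 resulting values 72 kept their direction, and the 3 that did not were of dre-miR-214, at log2 fold changes of 0.01 without stage IIIa replicate 2, 0.02 without stage IIIb replicate 1 and 0.12 without stage IIIb replicate 2. The related row cin-miR-199-3p turned to −0.0196 at equal totals and −0.10 without stage IIIb replicate 3. The other, xla-miR-214-5p, turned to 0.06, 0.16 and 0.13 without stage IIIa replicate 2 and stage IIIb replicates 1 and 2, and to 0.0448 on untransformed values. With each sample left out in turn the log2 fold changes ran from 0.21 to 0.57 for dre-miR-140-3p, from 0.35 to 0.75 for dre-miR-140-5p, from 0.03 to 0.56 for dre-miR-199-3p, from −0.75 to −0.16 for dre-miR-199-5p, from −0.47 to 0.12 for dre-miR-214, from −0.10 to 0.58 for cin-miR-199-3p and from −0.53 to 0.16 for xla-miR-214-5p. The cause of these turns was not tested. The lowest values of dre-miR-140-3p, dre-miR-199-3p, dre-miR-199-5p and dre-miR-214 were those without stage IIIb replicate 3, and that of dre-miR-140-5p was without stage IIIa replicate 1.

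The 13 miRNAs at an adjusted p under 0.05 became 7 to 12 when a sample was left out, with 7 both without stage IIIa replicate 2 and without stage IIIb replicate 3. They became 0 with an ordinary equal-variance linear model on untransformed values, the kind of test the study names, where 32 had an unadjusted p of 0.05 or less, against 43 in limma, and where each miRNA has only its own spread. The 43 at an unadjusted p of 0.05 or less became 67 after scaling by the median ratio and 29 to 62 when a sample was left out. After scaling to equal totals these calls were 20 higher and 42 lower in stage IIIb, against 28 and 15 on the deposited values.

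With the replicate number as a block 9 miRNAs passed the adjusted threshold and 59 the unadjusted one, and the block gave dre-miR-140-5p its lowest adjusted p of 0.252. Same-numbered samples had deviations from the stage means that correlated at 0.10, 0.28 and −0.03, so the numbers were not taken as pairing the samples, and not every sample correlated best with its own number.

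The difference in the 3p share between the stages ran from −1.10 to 0.428 percentage points for miR-140, from 2.28 to 11.5 for miR-199 and from −1.27 to 1.26 for miR-214 when a sample was left out, the last turning positive without stage IIIa replicate 1 (1.26) and stage IIIb replicates 2 (0.0487) and 3 (0.524). The 5 miRNAs made up 0.560% of the counts of zebrafish rows and 2.01% of the counts without the 10 most abundant miRNAs, by the construction of that total. After scaling by the median ratio 1 of the 10 pairs passed the adjusted threshold, dre-miR-140-5p with dre-miR-199-5p at r = −0.87 (n = 6, exact permutation p = 0.00278, adjusted p = 0.0278), which had r = −0.67 at equal totals (adjusted p = 0.681) and −0.29 on the deposited values (adjusted p = 0.776).

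With 3 pools a stage the 95% confidence intervals reach from 0.814-fold to 2.14-fold for dre-miR-140-3p, the narrowest on the log2 scale, and from 0.414-fold to 1.42-fold for dre-miR-199-5p, the widest on it. The data do not tell apart the stage differences inside an interval, no change among them. Low read numbers limit dre-miR-140-5p and the related rows most, and chiefly in stage IIIa replicate 1.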
